A study of Mus musculus with 12 samples.

Results

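The HSP70 family of chaperones was followed across 4 groups of perfused mouse hearts through 10 genes chosen by name, Hspa1a, Hspa1b, Hspa1l, Hspa2, Hspa4, Hspa4l, Hspa8, Hspa9, Hspa13 and Hspa14, of 52858 genes in the deposited values. All 10 passed the filter on low values and were among the 15240 genes tested. RNA sequencing covered 12 libraries, with 3 independent hearts in each group. C57BL/6J hearts and hearts of Slit2-Tg mice, which carry a full-length human SLIT2 cDNA under the CMV promoter, were perfused ex vivo on a Langendorff system. The hearts came from male mice aged 3 to 5 months. Non-IR hearts (C57-non-IR and Slit2-non-IR) were perfused without interruption for 80 min. IR hearts (C57-IR and Slit2-IR) underwent 20 min of global ischemia without flow and then 40 min of reperfusion within the same 80 min. The CMV promoter is not specific to a tissue or cell type, and the transgene was first made in C57 × CBA F1 oocytes. The RNA was from bulk heart tissue, in which fewer cells of a type and less RNA per cell cannot be told apart.

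HSP70 proteins bind unfolded stretches of other proteins and release them in a cycle driven by ATP. J-domain co-chaperones deliver the substrates, and nucleotide exchange factors reopen the cycle. Hspa1a and Hspa1b encode the stress-inducible cytosolic HSP70, Hspa8 the constitutive cytosolic form (HSC70) and Hspa9 the mitochondrial form (mortalin). Hspa1l and Hspa2 are known best for their expression in male germ cells, Hspa4 and Hspa4l are HSP110-type exchange factors, Hspa13 encodes a microsomal member, and Hspa14 encodes a member associated with the ribosome. In stressed cells, heat shock factor 1 binds heat shock elements, inverted repeats of a short unit, in the promoters of inducible chaperone genes.

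The sequences before the start sites of Hspa1a, Hspa1b and their neighbour Hspa1l are shown because these 3 genes lie together on chromosome 17 and differed widely in their response. In the GRCm38 coordinates of the deposited values, Hspa1b (ENSMUSG00000090877) lay at chr17:34956436-34959238 and Hspa1a (ENSMUSG00000091971) at chr17:34969190-34972156, both on the minus strand and both with 1 exon. Hspa1l (ENSMUSG00000007033), with 2 exons, lay at chr17:34972703-34979285 on the plus strand, with 546 bases between its start site and that of Hspa1a. The 250 bases before each start site, from RefSeq promoters of GRCm38.p6, were at chr17:34972157-34972406 on the minus strand for Hspa1a, at chr17:34959239-34959488 on the minus strand for Hspa1b and at chr17:34972453-34972702 on the plus strand for Hspa1l. They are printed 5′ to 3′, with a match to GAANNTTC in capitals.
Hspa1a: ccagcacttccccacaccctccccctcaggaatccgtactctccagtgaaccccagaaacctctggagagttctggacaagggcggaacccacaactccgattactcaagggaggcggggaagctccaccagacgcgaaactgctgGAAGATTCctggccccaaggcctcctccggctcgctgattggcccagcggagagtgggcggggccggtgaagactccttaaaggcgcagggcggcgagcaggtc
Hspa1b: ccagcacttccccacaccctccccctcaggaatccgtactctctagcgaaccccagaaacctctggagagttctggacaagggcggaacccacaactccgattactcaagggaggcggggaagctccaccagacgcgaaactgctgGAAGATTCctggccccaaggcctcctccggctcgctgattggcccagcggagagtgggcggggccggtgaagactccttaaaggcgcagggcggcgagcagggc
Hspa1l: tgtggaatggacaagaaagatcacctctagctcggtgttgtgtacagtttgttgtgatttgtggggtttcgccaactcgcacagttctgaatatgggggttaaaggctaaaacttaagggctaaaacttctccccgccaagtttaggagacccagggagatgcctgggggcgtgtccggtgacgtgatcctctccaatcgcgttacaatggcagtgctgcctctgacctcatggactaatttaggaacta

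The windows of Hspa1a and Hspa1b were identical at 247 of 250 bases (98.8%). Each held 1 match to GAANNTTC, from base -104 to base -97 counted from the start site, and 0 matches to the reverse order TTCNNGAA. Each of these motifs is its own reverse complement, so a match lies on both strands. The windows of Hspa1l, Hspa2, Hspa4, Hspa4l and Hspa14 held 0 matches to either, which says only that these letters are not in the 250 bases searched. Promoters of Hspa8, Hspa9 and Hspa13 were not in the table, so 7 of 10 members were searched. Among 32851 promoters of the same length, 6.69% held GAANNTTC, 7.17% held TTCNNGAA, 12.8% held either and 0.466% held 3 alternating units, a form found in 0 of the 7 members.

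The transcripts of Hspa1a (2967 bases) and Hspa1b (2803 bases) were identical at 95.1% of 2692 aligned bases. Of the stretches as long as the shorter of the stated read lengths, 43.8% in Hspa1a and 44.8% in Hspa1b also occurred in another gene, either the other copy or Hspa1l. A read from these stretches cannot be placed by sequence alone, so how reads were split between the pair is uncertain, and the sum of both is given beside the single values. Gm20481, on the opposite strand, shares 564 of the 2967 exon bases of Hspa1a (19.0%) and was listed at 0 in all 12 libraries. How reads on shared bases were assigned is not given in the sources used here.

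Per library, 16601154 to 24841291 recovered reads lay on genes and 19.7% to 26.0% of them on mitochondrial genes. Summed levels of 8 cardiomyocyte markers ranged from 14887 to 22719 FPKM (fragments normalized for gene length and depth), and every marker was detected. Summed atrial markers reached 1714 FPKM in Slit2-IR replicate 1 against 19.9 to 233 FPKM in the other 11 libraries, and summed red blood cell markers reached 49.0 FPKM in Slit2-non-IR replicate 2 against 1.47 to 16.2 FPKM in the others. Over all groups, atrial sums were 19.9 to 106 FPKM in non-IR and 67.3 to 1714 FPKM in IR hearts, red blood cell sums 4.53 to 49.0 and 1.47 to 12.9 FPKM, and adipocyte sums 0 to 7.97 and 0.105 to 17.2 FPKM. Red blood cell sums did not overlap between C57-non-IR (8.35 to 16.2 FPKM) and C57-IR hearts (1.47 to 6.79 FPKM), and atrial sums barely did (19.9 to 87.0 and 85.8 to 233 FPKM). The part of these marker levels in the differences between IR and non-IR hearts was not tested. Mouse Slit2 was listed between 0.085 and 0.813 FPKM in Slit2-Tg hearts and between 0.18 and 0.282 FPKM in C57BL/6J hearts. That row counts the mouse gene and not the human cDNA as such, so it is no check of the genotype labels. Differences below are on the log2(FPKM + 1) scale from limma's test in a fit of all 12 libraries, with Benjamini-Hochberg adjusted p-values over the 15240 genes tested and a threshold of 0.05. This scale understates the change of genes with low FPKM.

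The inducible pair rose after IR in hearts of both genotypes. On the scale of limma's test, both copies rose by more than any tested gene outside the pair. That scale understates the change of genes with low FPKM, so this order need not hold for ratios of FPKM. Hspa1a was at 7.72, 4.70 and 3.89 FPKM in C57-non-IR hearts and at 293, 365 and 374 FPKM in C57-IR hearts. In Slit2-Tg hearts it was at 5.10, 10.4 and 4.67 FPKM without IR and at 744, 486 and 349 FPKM after IR. Every IR heart thus lay far above every non-IR heart, and the highest non-IR value was that of Slit2-non-IR replicate 2. The difference was 5.78 (standard error 0.32, adjusted p = 1.17e-05) in C57BL/6J hearts and 6.10 (standard error 0.32, adjusted p = 9.29e-06) in Slit2-Tg hearts. On the FPKM scale the group means were 63.3 times higher after IR in C57BL/6J hearts and 78.3 times higher in Slit2-Tg hearts.

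Hspa1b was at 3.12, 3.60 and 3.50 FPKM in C57-non-IR hearts and at 380, 567 and 674 FPKM in C57-IR hearts. In Slit2-non-IR hearts it was at 3.28, 11.9 and 3.19 FPKM, and in Slit2-IR hearts at 891, 763 and 590 FPKM. IR and non-IR hearts did not overlap, and Slit2-non-IR replicate 2 again stood above the other non-IR hearts. The rise was 6.90 (standard error 0.38, adjusted p = 1.17e-05) in C57BL/6J hearts and 6.91 (standard error 0.38, adjusted p = 9.29e-06) in Slit2-Tg hearts. On the scale of limma's test this rise was the highest of all tested genes in each comparison, with Hspa1a next. The group means rose 158-fold and 122-fold in FPKM, and the second value was 231-fold without Slit2-non-IR replicate 2, which turns the order of the genotypes.

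**Figure D1:**
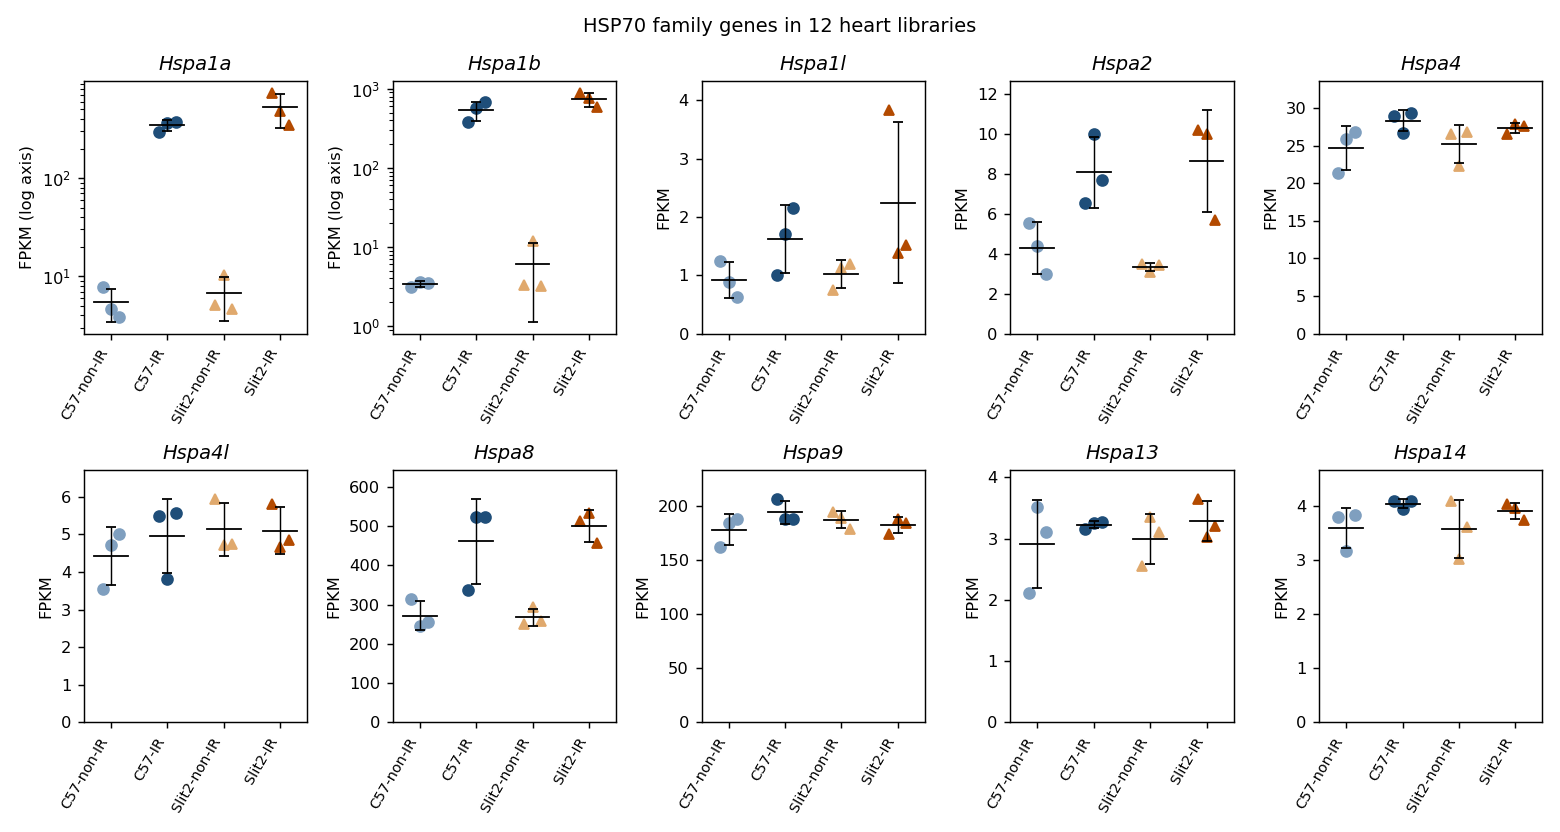
FPKM of the 10 HSP70 family genes in each library by group. Points are single hearts in the order of their replicate numbers, horizontal lines are group means and error bars are SDs (n = 3). The axes of Hspa1a and Hspa1b are logarithmic and the others start at 0. Hspa1a rose from 3.89 to 10.4 FPKM without IR to between 293 and 744 FPKM after IR, while Hspa9 stayed between 162 and 207 FPKM in all 12 hearts.

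The balance between the copies also moved. The ratio of Hspa1b to Hspa1a was 0.690 ± 0.257 (SD, n = 3) in C57-non-IR and 0.825 ± 0.282 in Slit2-non-IR hearts, and 1.55 ± 0.255 after IR in C57BL/6J and 1.49 ± 0.255 after IR in Slit2-Tg hearts. Its range was 0.404 to 1.15 over the 6 non-IR hearts and 1.20 to 1.80 over the 6 IR hearts, with no overlap. The log2 ratio was higher by 1.06 after IR (two-sided exact permutation test within genotypes, p = 0.005, the smallest that 400 relabelings can give), a comparison chosen after the values were seen. Since the copies share much of their sequence, the part of read assignment in this shift was not tested. The sum of both genes was 8.83 ± 1.76 FPKM in C57-non-IR hearts and 884 ± 191 FPKM in C57-IR hearts (SD, n = 3), and 12.9 ± 8.19 FPKM in Slit2-non-IR and 1275 ± 348 FPKM in Slit2-IR hearts. The mean of the sum was 99.9 times higher after IR in C57BL/6J hearts and 99.1 times higher in Slit2-Tg hearts. Without Slit2-non-IR replicate 2 the Slit2-non-IR mean of the sum was 8.12 FPKM, and the rise in Slit2-Tg hearts was 157-fold.

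**Figure D2:**
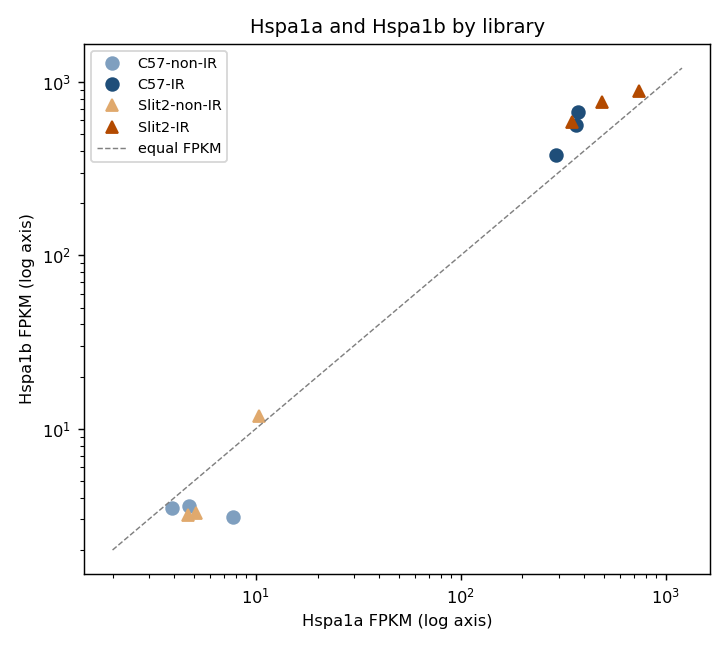
FPKM of Hspa1b against FPKM of Hspa1a in the 12 libraries, both on logarithmic axes, with a dashed line where they are equal. All 6 IR hearts lie above the line, with a ratio of 1.20 to 1.80, and of the non-IR hearts only Slit2-non-IR replicate 2 does, at 1.15.

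Hspa8, the constitutive cytosolic chaperone and the most abundant member without IR, was higher after IR by a much smaller factor. It was at 315, 246 and 255 FPKM in C57-non-IR hearts and at 337, 524 and 524 FPKM in C57-IR hearts. In Slit2-Tg hearts it was at 251, 293 and 259 FPKM without IR and at 513, 533 and 456 FPKM after IR. No IR heart overlapped the non-IR hearts, and C57-IR replicate 1 lay closest to them. Over both genotypes the mean rose from 270 to 481 FPKM (1.78-fold), a difference of 0.82 (standard error 0.12, adjusted p = 0.00472, range 0.000308 to 0.0173 over the alternative settings). Within C57BL/6J hearts the difference was 0.74 (95% interval 0.36 to 1.12) with an adjusted p of 0.107, which was 0.00664 without C57-IR replicate 1 and 0.118 to 0.408 without each of the other 11 libraries. Of the read-length stretches of Hspa8, 26.2% also occurred in the pseudogenes Gm15459, Gm6210 or Gm8355, whose levels were at most 1.72 FPKM.

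Hspa2 was the other member that rose over both genotypes. It was at 5.53, 4.36 and 2.97 FPKM in C57-non-IR hearts and at 6.52, 10.05 and 7.67 FPKM in C57-IR hearts. In Slit2-non-IR hearts it was at 3.50, 3.10 and 3.42 FPKM, and in Slit2-IR hearts at 10.2, 9.98 and 5.67 FPKM. The lowest IR value, in Slit2-IR replicate 3, was just above the highest non-IR value, in C57-non-IR replicate 1. The mean over both genotypes rose from 3.81 to 8.35 FPKM (2.19-fold), a difference of 0.95 (standard error 0.16, adjusted p = 0.00857, range 0.00329 to 0.0292 over the alternative settings). Within C57BL/6J hearts the difference was 0.79 (95% interval 0.29 to 1.29, adjusted p = 0.207). Hspa2 is known for its role in male germ cells, and 5 male germ cell markers summed to at most 0.222 FPKM in any library, with Prm2 and Tnp1 at 0 reads throughout.

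Within Slit2-Tg hearts Hspa8 and Hspa2 lay at the threshold. The difference was 0.90 for Hspa8 (95% interval 0.52 to 1.28) and 1.11 for Hspa2 (95% interval 0.61 to 1.61), with adjusted p-values of 0.0505 and 0.0617. Deviations of same-numbered libraries from their group means correlated at 0.143 to 0.294 in this comparison. In the others between single groups the correlations were 0.0377 to 0.362. Differently numbered libraries were not compared in this way. Adjusted p-values with replicates as a block were 0.0460 for Hspa8 and 0.0369 for Hspa2. In 12 fits that each dropped 1 library, the adjusted p of Hspa8 was under 0.05 only without C57-IR replicate 1 (0.00773) or C57-IR replicate 2 (0.0352), and was 0.0614 to 0.175 in the other 10 fits. For Hspa2 it was under 0.05 without C57-IR replicate 1 (0.0482), C57-IR replicate 2 (0.0440) or Slit2-IR replicate 3 (0.0245), and 0.0716 to 0.213 in the other 9 fits. C57-IR hearts enter this comparison only through the shared estimate of the spread. With no filter beyond 1 read the adjusted p-values were 0.132 for Hspa8 and 0.158 for Hspa2.

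Hspa1l, which starts next to Hspa1a in the opposite direction, had 27 to 192 recovered reads per library and the lowest FPKM of the family on average in every group. It was at 1.24, 0.881 and 0.631 FPKM in C57-non-IR, 0.997, 1.70 and 2.16 FPKM in C57-IR, 0.741, 1.12 and 1.20 FPKM in Slit2-non-IR and 3.83, 1.38 and 1.51 FPKM in Slit2-IR hearts. IR and non-IR hearts overlapped through C57-IR replicate 1, and the highest value was in Slit2-IR replicate 1, which also had the highest Hspa1a, Hspa1b and atrial marker sum. Whether atrial tissue has a part in these values was not tested. The difference over both genotypes was 0.52 (95% interval 0.12 to 0.92, adjusted p = 0.167). Of its read-length stretches, 4.64% also occurred in Hspa1a or Hspa1b.

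The remaining 5 members stayed close to their non-IR levels, and none passed the test. Hspa9 was at 162 to 195 FPKM without IR and at 174 to 207 FPKM after IR, with a difference over both genotypes of 0.04 (95% interval -0.10 to 0.18). The exchange factor Hspa4 was at 21.3 to 26.8 FPKM and at 26.5 to 29.3 FPKM, with a difference of 0.16 (95% interval -0.01 to 0.32). Its relative Hspa4l was at 3.56 to 5.95 FPKM and at 3.82 to 5.81 FPKM, a difference of 0.06 (95% interval -0.18 to 0.30). The upper bounds of these intervals lie far below the rises of the inducible pair. For Hspa13 the difference was 0.12 (95% interval -0.09 to 0.33), with 2.11 to 3.51 FPKM without IR and 3.02 to 3.65 FPKM after IR. Hspa14 was at 3.01 to 4.08 FPKM and at 3.74 to 4.09 FPKM, a difference of 0.12 (95% interval -0.03 to 0.28). It shares 321 of its 4057 exon bases with Gm45902 on the same strand, listed at 0.218 to 0.583 FPKM.

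**Figure D3:**
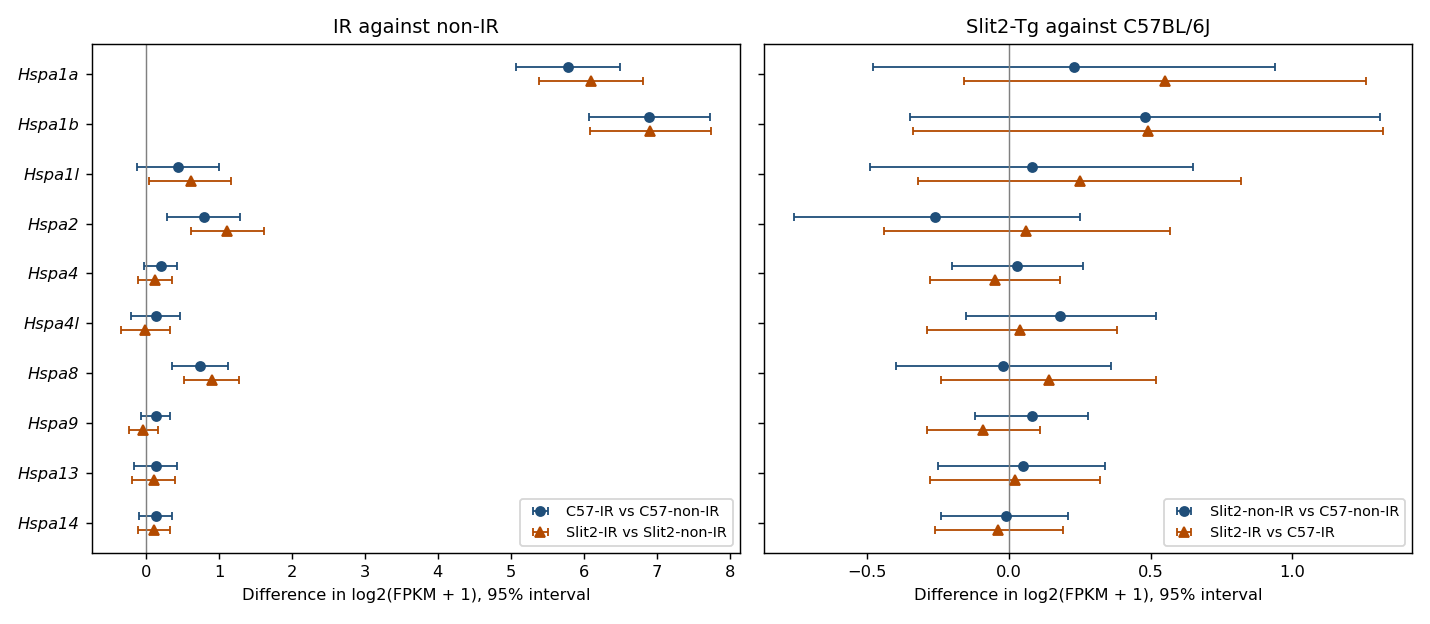
Differences in log2(FPKM + 1) with 95% intervals from limma for the 10 members. The left panel gives IR minus non-IR in C57BL/6J and in Slit2-Tg hearts, and the right panel Slit2-Tg minus C57BL/6J without and after IR, on a narrower axis. Hspa1a and Hspa1b lie between 5.78 and 6.91 on the left, and every interval on the right includes 0.

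In all, 2 of 10 members were higher in C57-IR than in C57-non-IR hearts at an adjusted p under 0.05, where 0.459% of all tested genes were called. In Slit2-Tg hearts 2 of 10 were called as higher after IR, against 0.525% of all tested genes, and 4 of 10 with replicates as a block, a fit that called 1.33% of all tested genes. Over both genotypes 4 of 10 were called, all higher after IR, where 3.49% of tested genes were called in either direction. The 6 IR and 6 non-IR hearts did not overlap for the same 4 members, against 3.41% of tested genes. The median difference of the members was 0.34, beside 0.00 over all tested genes. An exact permutation test of each of the 10 members, two-sided and within genotypes, gave p = 0.005 for Hspa1a, Hspa1b, Hspa2 and Hspa8, the smallest p it allows, p = 0.015 for Hspa1l and p = 0.025 for Hspa4, both of which failed the test across all genes.

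Slit2-Tg hearts were compared with C57BL/6J hearts for the level and the IR response of these genes. The transgene and any other difference between the 2 lines cannot be told apart in this design. Without IR, 0 of 10 members differed by genotype (0.0394% of tested genes called). Limma gave an unadjusted p under 0.05 to 0 of 10 members and to 486 of the 15240 tested genes. The difference was 0.23 (95% interval -0.48 to 0.94) for Hspa1a and 0.48 (95% interval -0.35 to 1.31) for Hspa1b. Both rested on Slit2-non-IR replicate 2, without which they were -0.09 and -0.06, and that library also had the highest red blood cell marker sum. Whether blood has a part in this was not tested.

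After IR, 0 of 10 members differed by genotype (0.0459% of tested genes called). Before adjustment limma again gave 0 members a p under 0.05, beside 482 of all tested genes. The mean of Hspa1a was 527 ± 200 FPKM in Slit2-IR and 344 ± 44.0 FPKM in C57-IR hearts (SD, n = 3), a difference of 0.55 with a 95% interval of -0.16 to 1.26. Hspa1b was at 748 ± 151 and 540 ± 149 FPKM, a difference of 0.49 with a 95% interval of -0.34 to 1.32. The groups overlapped for both genes, and the spread between hearts leaves room for a difference of more than 1 on the log2 scale in the inducible pair. Slit2-IR replicate 1, which also had the highest atrial marker sum, was the highest heart for both genes. Without it the Slit2-IR mean was 418 FPKM for Hspa1a and 677 FPKM for Hspa1b. Over the alternative settings the difference was 0.27 to 0.81 for Hspa1a and 0.26 to 0.67 for Hspa1b. Whether atrial tissue has a part in it was not tested. For Hspa8 the difference was 0.14 (95% interval -0.24 to 0.52) and for Hspa2 it was 0.06 (95% interval -0.44 to 0.57).

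The test of whether IR acted differently in the 2 genotypes called 0 of 10 members and 0% of tested genes, with limma's unadjusted p under 0.05 for 0 members and for 284 of all tested genes. The interaction was 0.32 (95% interval -0.68 to 1.32) for Hspa1a, 0.01 (95% interval -1.16 to 1.18) for Hspa1b, 0.16 (95% interval -0.37 to 0.70) for Hspa8 and 0.32 (95% interval -0.39 to 1.03) for Hspa2. Limma-voom on the recovered reads also called 0 members in each of these 3 comparisons.

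The make-up of the family changed with IR. FPKM divides by the deposited gene length, so the order and shares below depend on that length. It was 4301 bases for Hspa8 and 3932 for Hspa9, against longest transcripts of 3158 and 3049 bases. For Hspa1a and Hspa1b it was that of the longest transcript. In C57-IR hearts Hspa8 had 25309, 44453 and 50642 recovered reads, and Hspa1b had 18583, 31343 and 42448. In non-IR hearts of both genotypes the order was led by Hspa8 (272 and 268 FPKM on average in C57BL/6J and Slit2-Tg hearts), then Hspa9 (178 and 188 FPKM) and Hspa4 (24.7 and 25.2 FPKM), each clear of the next, with the 7 others at 6.72 FPKM or less. Hspa1a, Hspa4l, Hspa2, Hspa14, Hspa1b and Hspa13 overlapped with their neighbours in the order of C57-non-IR hearts. After IR Hspa1b led on average in FPKM. Its values overlapped with those of the next gene in the order, Hspa8 for C57-IR hearts and Hspa1a for those of Slit2-IR. Hspa9 and then Hspa4 followed these 3 genes in both IR groups.

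The summed FPKM of the 10 genes was 482 to 543 in the 6 non-IR hearts and 1267 to 2376 in the 6 IR hearts. Hspa1a and Hspa1b together made up 1.50% to 4.12% of it without IR and 53.1% to 68.8% after IR. The share of Hspa8 was 54.3% ± 4.95 and 28.8% ± 2.15 (SD, n = 3) in C57-non-IR and C57-IR hearts and 52.5% ± 1.90 and 25.3% ± 3.33 in Slit2-non-IR and Slit2-IR hearts, although its own level was higher after IR. The share of Hspa9, whose level changed little, was 30.8% to 39.2% without IR and 7.33% to 16.4% after IR.

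**Figure D4:**
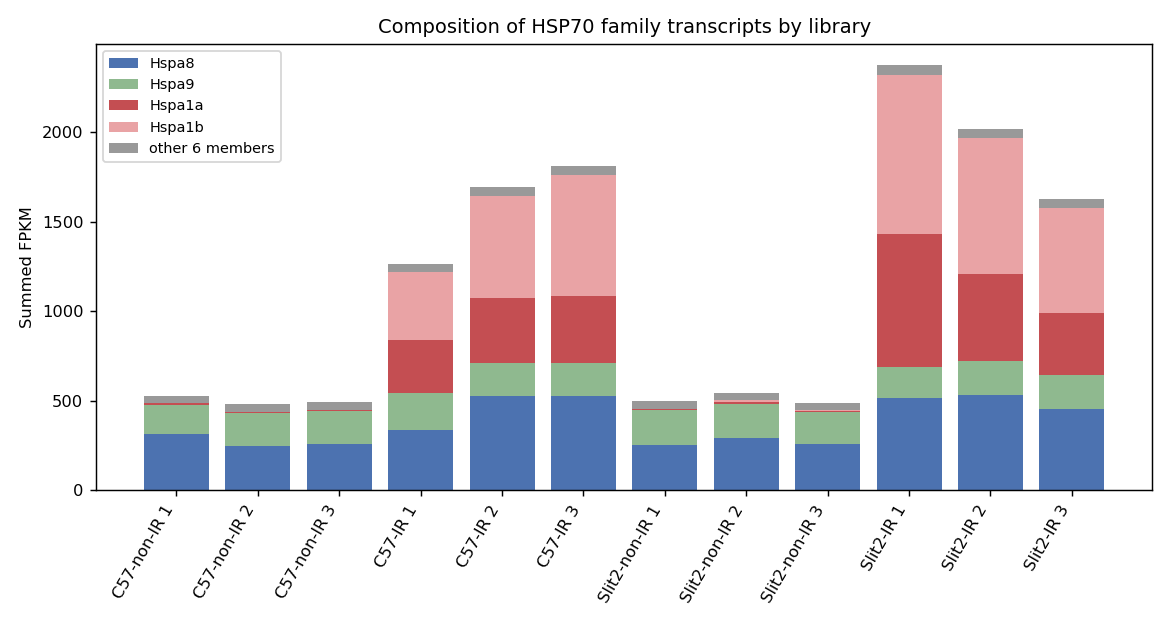
Summed FPKM of the 10 HSP70 family genes in each library, divided into Hspa8, Hspa9, Hspa1a, Hspa1b and the other 6 members. Bars start at 0. The sums lie at 482 to 543 without IR and at 1267 to 2376 after IR, and the part above Hspa8 and Hspa9 in the IR bars is mostly Hspa1a and Hspa1b.

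Other chaperone genes, co-chaperones and heat shock factors were taken from 5 lists with 53 genes, all tested and chosen with earlier results of these data known. They are called partner genes below, though not all of them work directly with HSP70. Over both genotypes 13 of the 53 were higher and 1 was lower after IR, where 3.49% of all tested genes were called, and 48 of 53 differences were above 0. The median difference was 0.14, beside 0.00 over all tested genes. The called number was 9 without any of C57-non-IR replicate 2, C57-IR replicate 2, Slit2-non-IR replicate 1, Slit2-non-IR replicate 2 or Slit2-IR replicate 1. The same 9 genes, Bag3, Dnaja1, Dnaja4, Dnajb1, Dnajb4, Hsp90aa1, Hspa5, Hspb1 and Hsph1, were called without each of the 12 libraries in turn.

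Of 17 J-domain co-chaperones, 4 rose and 0 fell, where 3.49% of all tested genes were called. Dnajb1, the main partner of the inducible form, was at 9.82 to 18.8 FPKM in the non-IR hearts and at 87.6 to 280 FPKM in the IR hearts, a difference of 3.47 (standard error 0.27, adjusted p = 0.000201). Dnaja1 rose by 1.57, Dnajb4 by 1.04 and Dnaja4 by 0.81, with adjusted p-values of 0.00346, 0.0153 and 0.00459. The other 13 did not pass the test. Of 13 exchange factors and adaptors, Bag3, which links HSP70 to small heat shock proteins and autophagy, was the only gene called. It rose by 0.87 (adjusted p = 0.0123), from 57.1 to 90.6 FPKM in non-IR hearts to between 102 and 194 FPKM in IR hearts.

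Among 5 genes of the HSP70 superfamily outside the 10, Hsph1, the inducible HSP110 exchange factor, rose from 6.21 to 8.58 FPKM in non-IR hearts to between 19.3 and 34.7 FPKM in IR hearts, by 1.73 (adjusted p = 0.000322). Hspa5, the endoplasmic reticulum form known as BiP, rose by 0.75 (adjusted p = 0.00246), from 87.7 to 111 FPKM to between 121 and 175 FPKM. Hspa12b, which is expressed in endothelial cells, was the gene called lower, by -0.47 (adjusted p = 0.0488, named outside the rule after its value was seen). It stayed called in 1 of 12 fits that each left out a library, without C57-IR replicate 3. Summed endothelial markers were at 182 to 209 FPKM in C57-non-IR and 140 to 206 FPKM in C57-IR hearts. In Slit2-Tg hearts they were at 145 to 194 FPKM without IR and 157 to 214 FPKM after IR. Their part in the lower Hspa12b was not tested.

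Of 14 HSP90, HSP60 and small heat shock proteins, 6 rose and 0 fell, where 3.49% of all tested genes were called. Hsp90aa1, the inducible HSP90, rose by 2.19 (adjusted p = 0.000322), from 29.0 to 43.6 FPKM to between 98.5 and 230 FPKM. Hspb1, the small chaperone HSP27 (HSP25 in the mouse), rose by 1.78 (adjusted p = 0.00178), from 249 to 509 FPKM to between 835 and 1705 FPKM. Smaller rises were seen for the collagen chaperone Serpinh1 (0.95, adjusted p = 0.0282), the endoplasmic reticulum HSP90 Hsp90b1 (0.56, adjusted p = 0.0362), the constitutive Hsp90ab1 (0.40, adjusted p = 0.0360) and the mitochondrial co-chaperonin Hspe1 (0.45, adjusted p = 0.0444, also named after its value was seen). With a library left out, Serpinh1 stayed called in 4 of 12 fits, Hsp90b1 and Hsp90ab1 in 3 each and Hspe1 in 1. Only 2 or 3 of the 14 were called when any library other than C57-non-IR replicate 3 (4 called) or C57-IR replicate 1 (6 called) was left out.

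None of 4 heat shock factors and regulators was called over both genotypes, where 3.49% of all tested genes were. Hsf1, the factor that drives inducible HSP70 genes, was at 14.6 ± 1.57, 14.6 ± 1.09, 14.9 ± 1.66 and 18.2 ± 3.36 FPKM (SD, n = 3) without and after IR in C57BL/6J hearts and then without and after IR in Slit2-Tg hearts, a difference of 0.13 over both genotypes (adjusted p = 0.593). Hsf2 was at 1.29 ± 0.0810, 1.42 ± 0.141, 1.43 ± 0.0982 and 1.32 ± 0.0997 FPKM in the same order (difference 0.01, adjusted p = 0.976). Between genotypes 0 of the 53 genes were called, without IR, after IR or in the interaction. Of all tested genes 0.0394%, 0.0459% and 0% were called, in the same order. Limma's unadjusted p was under 0.05 for 1, 0 and 0 of the 53, and for 486, 482 and 284 of all 15240.

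**Figure D5:**
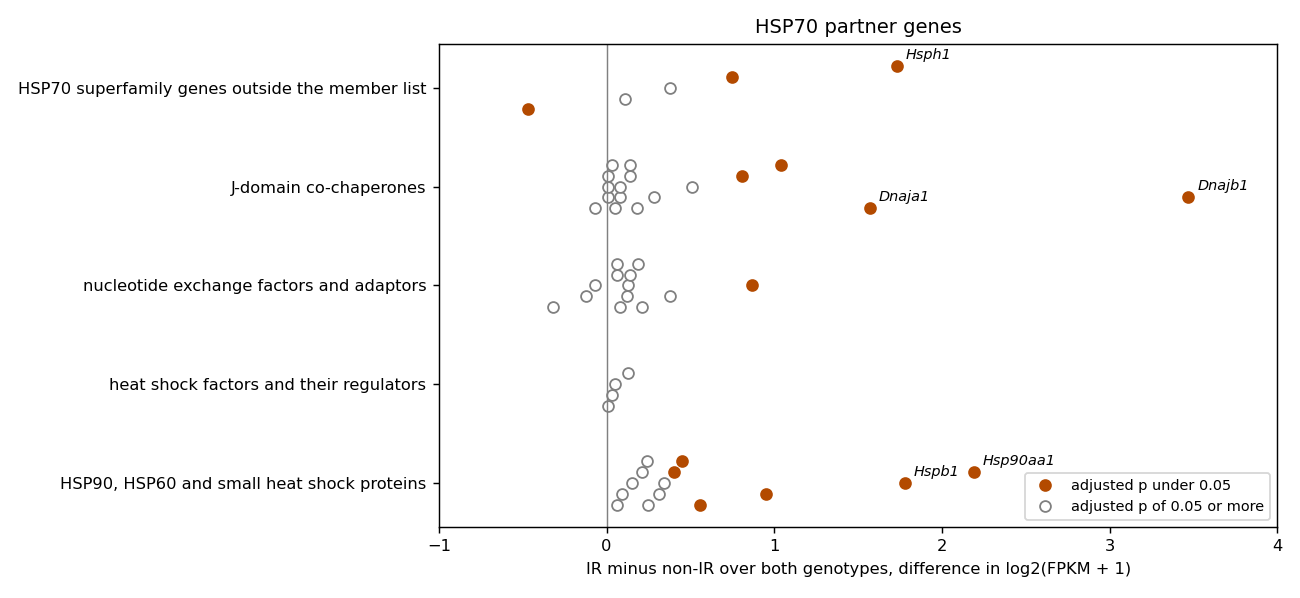
Differences in log2(FPKM + 1) between IR and non-IR hearts over both genotypes for 53 genes in 5 lists, each point being a gene and the vertical scatter within a list carrying no value. Filled points have an adjusted p under 0.05. Dnajb1 lies farthest right at 3.47, followed by Hsp90aa1 at 2.19, Hspb1 at 1.78, Hsph1 at 1.73 and Dnaja1 at 1.57.

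The profile over the 12 libraries most like the mean of Hspa1a and Hspa1b on the log2(FPKM + 1) scale was that of Dnajb1 (Pearson's r = 0.980), followed by Hsp90aa1 (0.977), the nuclear receptor gene Nr4a3 (0.976), Hsph1 (0.975) and the AP-1 gene Fosl2 (0.970). Nr4a3 was at 0.554 to 0.971 FPKM in non-IR hearts and at 13.3 to 37.7 FPKM in IR hearts, and Fosl2 at 3.97 to 6.79 and 16.7 to 35.7 FPKM. For Hspa8 the most alike were Lmna (0.973), the pseudogene Gm12346 (0.972), Tgif1 (0.970), Arid5a (0.967) and Actg1 (0.967), with Lmna at 16.7 to 20.9 FPKM in non-IR and 22.9 to 43.1 FPKM in IR hearts. These values are descriptions over libraries that fell into an IR and a non-IR cluster, and likeness within a cluster was not taken.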

How the data were processed

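RNA from 12 hearts was sequenced by the authors as paired-end reads (HISAT2 and mm10 in the submitters' processing notes). The authors deposited FPKM values per gene and library, and how strand and shared reads were counted is not given in the sources used here. For 100% of values, the product of FPKM and gene length was a whole number of steps of that library (tolerance 0.01), which gave the reads behind each value. The steps followed median-of-ratios size factors (relative SD 3.55e-11), so the groups share a scale. IR or non-IR was read from the second letter of each title.

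Genes were kept with at least 15 reads in total and a level worth 10 reads, at median depth, in 3 or more libraries, and were tested with limma 3.58.1 (R 4.3.3) on log2(FPKM + 1), with a variance trend, 4 groups and no covariate. The fit was tested on simulated data, where it found most changed genes and made more false calls among its calls than the threshold allows. The members, partner lists and markers were chosen with earlier results of these data known. The members were all named, as were up to 12 called partner genes with the smallest adjusted p, Hsf1, Hsf2 and the 5 most similar profiles. Deviations from group means correlated between same-numbered libraries for IR within Slit2-Tg hearts (0.143 to 0.294) and for genotype after IR (0.154 to 0.362). The correlations were also positive for IR within C57BL/6J hearts (0.0833 to 0.295) and for genotype without IR (0.0377 to 0.324). A pairing of replicates thus comes from these data alone. Alternatives were a pseudocount of 0.1, other filters, TMM scaling, 6-library fits, the block, the summed pair, leaving out each library and limma-voom, the last chosen after seeing the data. Sequences came from RefSeq (GRCm38.p6) and transcripts from GENCODE.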

Additional observations from a re-analysis of the deposited data

How the results depend on the processing

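Over 8 called results of single members, the direction and the call held in all 156 fits. In Slit2-IR against Slit2-non-IR, 2 members were called, and 4 with at least 10 reads in every library (0.819% of all tested genes called), with the replicate block (1.33%) or with limma-voom (0.650%, chosen after seeing the data), against 0.525% before. With a pseudocount of 0.1 (0.689%) or in the fit of only the 6 libraries compared (0.394%), 3 members were called, Hspa8 being the added one. With a library left out, 2 to 4 members and 0.0262% to 1.18% of all tested genes were called. Summing Hspa1a and Hspa1b made 1 gene of 2 and gave 1 call there and 1 in C57-IR against C57-non-IR hearts. The replicate block, applied to every comparison, changed no other call of a member.

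Differences of uncalled members changed sign in some fits, and the cause was not tested. With limma-voom, Hspa4l was at -0.02 and Hspa9 at -0.05 in IR against non-IR over both genotypes, Hspa8 at 0.02 in Slit2-non-IR against C57-non-IR, and the interaction of Hspa1b at -0.03. The last was -0.06 with a pseudocount of 0.1. With libraries left out, Hspa13 lay at -0.02 to 0.24 in C57-IR against C57-non-IR, and Hspa4l at -0.09 to 0.09 in Slit2-IR against Slit2-non-IR. In Slit2-non-IR against C57-non-IR, Hspa1a lay at -0.09 to 0.47, Hspa1b at -0.06 to 0.76 and Hspa8 at -0.09 to 0.09. In Slit2-IR against C57-IR, Hspa2 lay at -0.07 to 0.31 and Hspa8 at -0.07 to 0.25. The interaction lay at -0.27 to 0.55 for Hspa1b and at -0.05 to 0.27 for Hspa8. The planned edgeR test was not run, since the deposited values are not counts. Hspa1l had the fewest reads of the members, 27 to 192 per library, and its coefficient of variation between hearts was 24.0% to 61.6%. The part of counting error in that spread was not tested.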
